A study of Mus musculus with 2 samples.

Results

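The Krt1/Krt10-high spinous keratinocytes described here are 2231 cells of mouse dorsal skin, 1191 in a Chrna5-/- library and 1040 in a wild-type (WT) library. They were selected on their UMI counts of Krt1, Krt10 and Krt79, from 20437 cell barcodes (9696 Chrna5-/- and 10741 WT) by 3 criteria. A barcode needed at least 500 UMIs (unique molecular identifiers, counts of captured RNA molecules), at least 300 genes and at most 20% of UMIs from mitochondrially encoded genes, which kept 9308 Chrna5-/- and 10160 WT cells. Krt1 and Krt10 together had to make up at least 1% of a cell's UMIs. Krt79, a keratin of the upper hair follicle, had to be under 3 UMIs.

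The Chrna5-/- group was female mice lacking the α5 subunit of the nicotinic acetylcholine receptor, aged 6 to 8 weeks, with dorsal skin treated with vaseline as the control treatment and taken on day 7. The WT group was female mice of the same age, treatment and day, and both carry the strain label C57BL/6, with the protocols naming C57BL/6N for breeding and C57BL/6J for the mice used. The skin was digested with collagenase, viable cells were sorted by exclusion of SytoxBlue, and 1 droplet library was made per genotype. Imiquimod-treated skin is named in the extraction protocol, although both labels give vaseline. How many mice each library pools and which part of Chrna5 is deleted is not stated in the labels.

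Spinous keratinocytes are the suprabasal cells of the epidermis that have left the basal layer. On leaving it they replace the basal keratin pair Krt5 and Krt14 by Krt1 and Krt10, build up desmosomes, and begin to make secreted and lipid-handling proteins of the barrier; in the granular layer above them filaggrin, loricrin and the small proline-rich proteins of the cornified envelope follow. In inflamed or wounded epidermis the same layers switch on Krt6, Krt16 and Krt17 together with chemokines and antimicrobial peptides, which is the usual readout of an activated keratinocyte.

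The Chrna5-/- library held 125458721 UMIs and the WT library 139673385, of which the Krt1/Krt10-high cells gave 20797061 and 19422079. Their median depth was 16968 UMIs and 3495 genes in Chrna5-/- cells and 17608 UMIs and 3593 genes in WT cells, with a median of 2.18% mitochondrial UMIs in Chrna5-/- cells and 2.35% in WT cells. The libraries shared 34 barcodes, and 0 barcodes were Krt1/Krt10-high in both. Chrna5 had 0 UMIs in the Krt1/Krt10-high cells of each library, so it does not check the labels here. With 1 library per genotype there is no replicate and no test of genotype: every difference below is between 2 libraries, and the 95% intervals (exact, from counts) cover counting error only.

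Krt1/Krt10-high cells made up 12.8% of the kept Chrna5-/- cells (95% Clopper-Pearson interval 12.1 to 13.5) and 10.2% of the kept WT cells (9.65 to 10.8), a ratio of 1.25 (1.16 to 1.35). Among keratinocytes they were 17.7% in Chrna5-/- skin and 15.8% in WT skin, a ratio of 1.12 (1.04 to 1.21). The ratio thus depends on the denominator and on the Krt79 limit. Krt79 was at 1 or 2 UMIs in 74 and 4 of the Chrna5-/- cells but in 135 and 21 of the WT cells, and another 32 Chrna5-/- and 82 WT cells passed the Krt1 and Krt10 limit but had 3 or more Krt79 UMIs. With Krt79 at 0 UMIs required, the ratio of shares of kept cells was 1.37. In a sort of dissociated whole skin, fewer cells of a type recovered and fewer present cannot be told apart.

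The share of UMIs that chose the cells spread widely and alike in both libraries. Krt1 and Krt10 made up a median of 2.20% of a cell's UMIs in Chrna5-/- cells and 2.24% in WT cells, with a maximum of 9.32% in Chrna5-/- and 10.1% in WT cells. Between 1 and 2% lay 495 Chrna5-/- and 428 WT cells, between 2 and 5% lay 644 and 558, and between 5 and 10% lay 52 and 52; only 2 WT cells exceeded 10%. Just inside the threshold, at 1 to 1.2%, were 110 Chrna5-/- and 97 WT cells, and just outside it, at 0.8 to 1%, were 137 and 101. Those just inside had 5208 CPM (counts per 1000000 summed UMIs) of Krt5 in Chrna5-/- and 5369.9 CPM in WT cells, against 5749 and 5509 CPM just outside, so the limit cuts through a continuum rather than between separate populations.

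**Figure D1:**
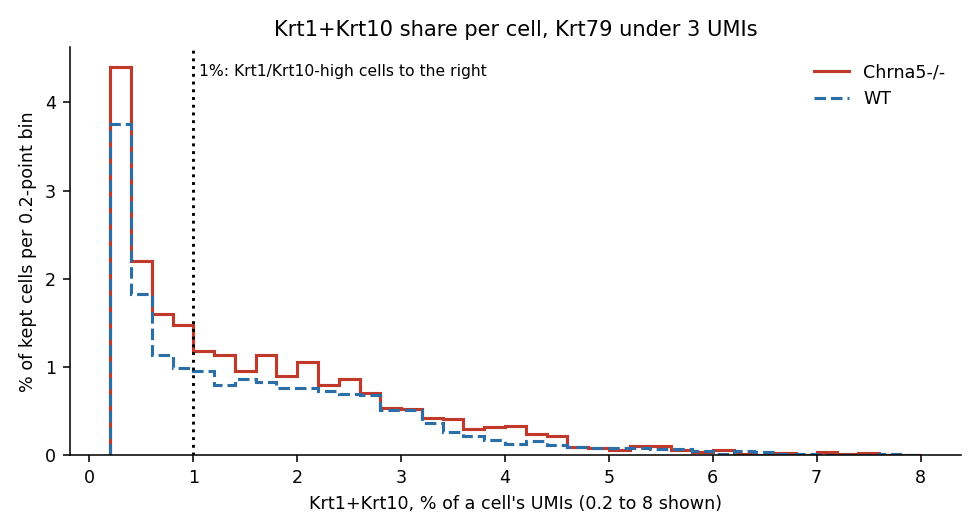
Krt1 and Krt10 as a percentage of each cell's UMIs (x axis) against the percentage of kept cells per bin of 0.2 percentage points (y axis), for cells with Krt79 under 3 UMIs, Chrna5-/- solid and WT dashed. Both curves fall without a gap across the 1% limit, and the Chrna5-/- curve lies above the WT curve just over the limit.

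The other markers of the label were high in the same cells, which describes them and is no test, since Krt1 and Krt10 chose the cells. For comparison, keratinocytes with low Krt1 and Krt10 (under 0.2% of UMIs, with Krt5 and Krt14 at 1% or more and Krt79 under 3 UMIs; 4770 Chrna5-/- and 4858 WT cells, hair follicle keratinocytes included) and with intermediate Krt1 and Krt10 (0.2 to 1%; 758 and 678 cells) were summed in the same way. Relative to the low keratinocytes of their own library, Krt1/Krt10-high cells had 36.9 times the CPM of Mt4 in Chrna5-/- and 38.9 times in WT skin. For Krt77 the same fold was 68.3 in Chrna5-/- and 34.1 in WT, for Asprv1 23.3 and 23.2, for Them5 19.5 and 24.3, and for Endou 40.1 and 44.9. All 5 markers that the rule did not use were thus many times higher in these cells in both libraries, and the markers do not go against the spinous label. Basal keratin was still present, and Krt5 and Krt14 together were under 1% of UMIs in 63.5% of the Chrna5-/- and 63.5% of the WT cells. Cd3-positive cells, which should lack these genes, were taken for comparison (532 Chrna5-/- and 560 WT cells). They had 3 or more UMIs of Cd3d, Cd3e and Cd3g together, and Krt5 and Krt14 under 1% of UMIs. The second condition left out Cd3-positive cells rich in basal keratin, so the rest were low in it by choice. Krt1 and Krt10 had a median of 0.0207% of UMIs in the chosen Chrna5-/- and 0.0143% in the chosen WT cells. The level in most of those cells thus lay far below the 1% limit. Yet 4 Chrna5-/- (0.752%) and 13 WT Cd3-positive cells (2.32%) reached it.

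Along the Krt1 and Krt10 share, basal genes gave way to genes of the upper spinous layer in both libraries. Krt5 was lower in each higher bin, at 3435, 863 and 199.95 CPM in Chrna5-/- cells and 3994, 1144 and 186 CPM in WT cells. Krt14, its partner, kept a higher level at the top of the range, with 3703 CPM in Chrna5-/- and 2109 CPM in WT cells at 5 to 10%. Both keratins were also found in cells that should lack them: Krt14 had a UMI in 80.8% of Chrna5-/- and 79.3% of WT Cd3-positive cells and Krt5 in 64.1% and 60.5%. Those cells were chosen with both keratins under 1% of UMIs. The part of such free RNA in the top bin was not tested. The other genes with the strongest decrease along the range were Itgb4, the hemidesmosome integrin subunit, Ptn, Smoc2 and the mitotic genes Ube2c, Birc5, Cenpa, Cenpf, Anln and Mki67, with the replication histones Hist1h2ap and Hist1h2ae. Ube2c had 82.7 CPM in Chrna5-/- and 71.0 CPM in WT cells at 1 to 2%, and 1.000 and 3.50 CPM at 5 to 10%. Transcripts of dividing cells thus lay at the lower edge of the range.

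The 12 genes with the largest relative increase towards the top of the range included enzymes, a transporter, a keratin and envelope genes. Alox12b, the 12R-lipoxygenase that acts on barrier ceramides, had 0.768, 7.51 and 22.99 CPM over the bins in Chrna5-/- cells and 2.45, 12.4 and 53.4 CPM in WT cells. Slc5a1, a sodium-glucose cotransporter, had 3.59 CPM in the lowest and 93.98 CPM in the highest bin in Chrna5-/- cells, and 3.68 and 147 CPM in WT cells. The same course was seen in both libraries for Mboat2, an acyltransferase, Gsdma, a gasdermin, Krt78, a type II keratin, Serpinb12, a serine protease inhibitor, Gjb2, the connexin 26 gap junction gene, Slurp2, a secreted Ly6 protein, Calml3, Cnfn, Sdr16c6 and Flg. Their ratios of the 5 to 10% bin over the 1 to 2% bin in Chrna5-/- cells lay between 9.37 for Calml3 and 34.3 for Mboat2, and in WT cells between 10.6 for Gjb2 and 529 for Flg. The 5 to 10% bin rests on 52 cells in each library, so single cells weigh in it.

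**Figure D2:**
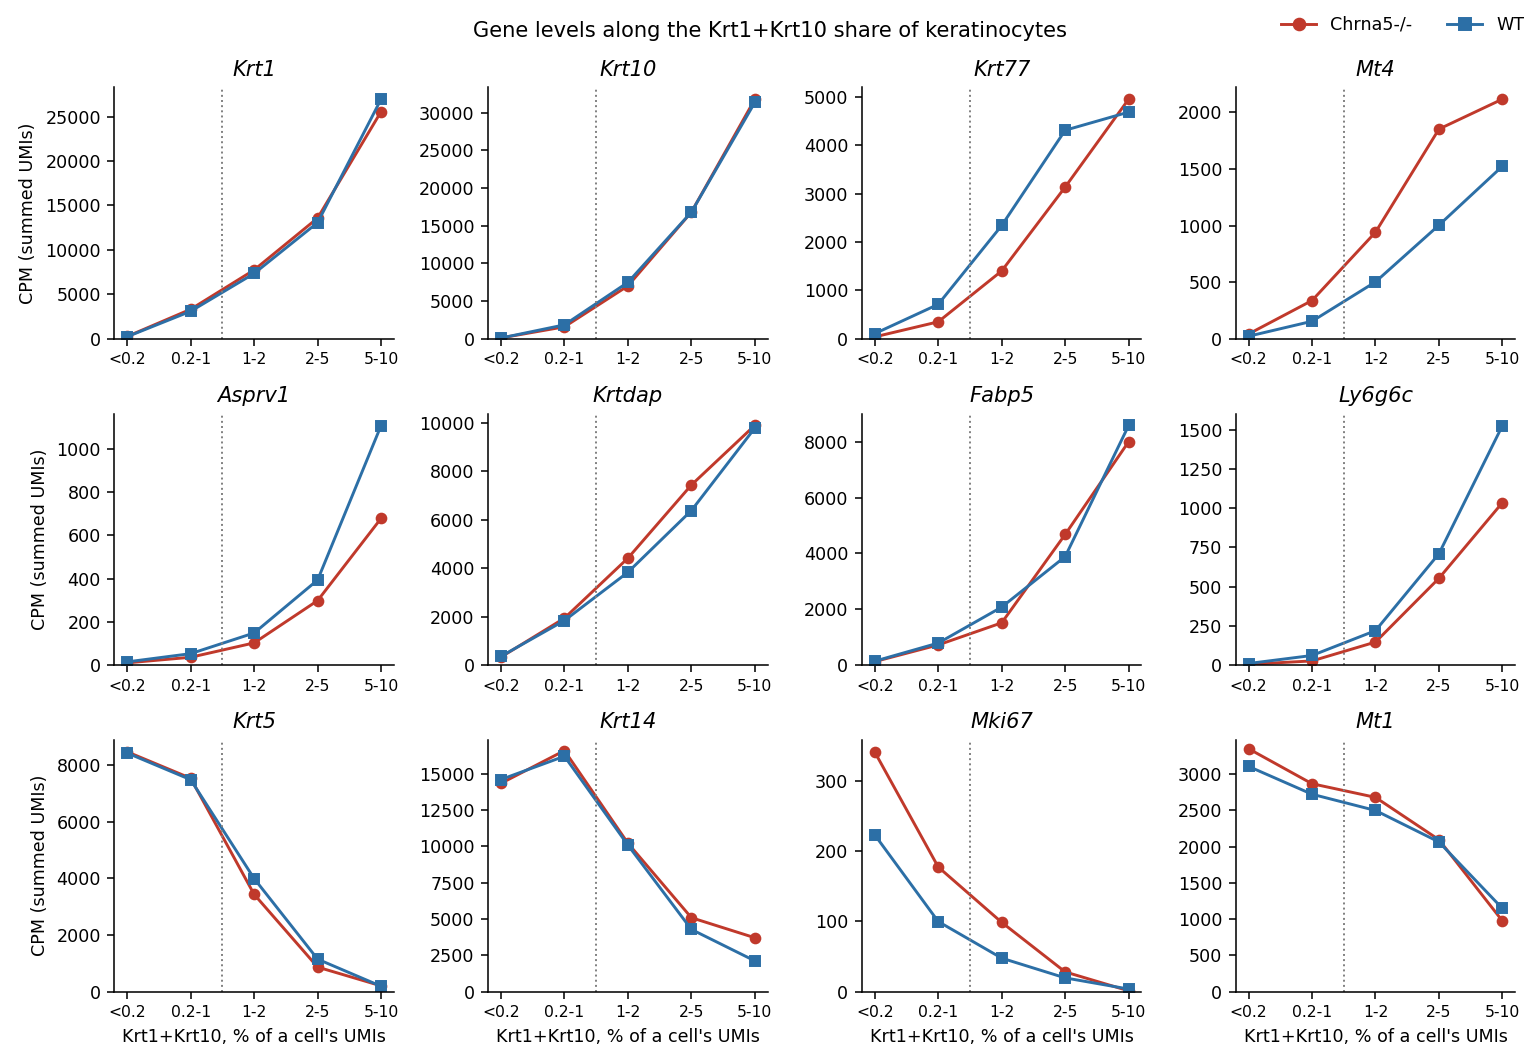
CPM of summed UMIs (y axes, linear from 0) of 12 genes in keratinocytes ordered by the share of Krt1 and Krt10 in a cell's UMIs (x axes, in %), Chrna5-/- as circles and WT as squares; cells right of the dotted line are Krt1/Krt10-high. Krt1, Krt10, Krtdap and Krt5 run together in both libraries, while Mt4 lies higher and Krt77 lower in Chrna5-/- cells at 1 to 5%.

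The genes that separated Krt1/Krt10-high cells most from low keratinocytes in both libraries included surface proteins, enzymes and a keratin. Krt78 had 31.0 CPM in Chrna5-/- and 21.99 CPM in WT Krt1/Krt10-high cells, against 0.121 and 0.115 CPM in the low keratinocytes. Ly6g6c, of the Ly6 family of membrane-anchored proteins, had 424 CPM in Chrna5-/- and 575 CPM in WT cells, against 5.04 and 10.2 CPM. The others among the 15 highest folds were Slc5a1, Alox12, Ano7, Ly6g6e, D7Ertd443e, Skint6, Skint9, C130079G13Rik, Teddm3, Tdh, Sdr16c6, Adgrf2 and Ephx3, an epoxide hydrolase of barrier lipids. In the other direction stood Jag2, a Notch ligand, at 7.74 CPM in Chrna5-/- and 9.63 CPM in WT cells against 122 and 124 CPM in the low keratinocytes. Thbs2, Ctnnal1, Cysltr1, Dlk2, Rerg, Ccdc27, Aunip, Arhgap25 and Npr3 made up the rest of the 10 lowest.

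Known regulators and adhesion genes of the suprabasal layers separated the same populations in both libraries. Notch3, a receptor active above the basal layer, had 39.7 CPM in Krt1/Krt10-high and 4.49 CPM in low keratinocytes of the Chrna5-/- library, and 42.0 and 4.86 CPM in those of the WT library. Zfp750, a factor of late differentiation, had 405 CPM in Krt1/Krt10-high and 44.7 CPM in low Chrna5-/- keratinocytes, and 437 and 63.8 CPM in the WT ones. Trp63, the master factor of the basal layer, was lower in the Krt1/Krt10-high cells, with 158 against 279 CPM in Chrna5-/- and 156 against 316 CPM in WT skin. The desmosomal cadherin Dsg1a had 829 CPM in Krt1/Krt10-high and 136 CPM in low Chrna5-/- keratinocytes, and 747 and 123 CPM in the WT ones. Dsg3, the desmoglein of the lower layers, had 67.9 and 115 CPM in the same Chrna5-/- populations and 88.2 and 119 CPM in the WT ones. Notch3, Zfp750, Trp63, Dsg1a and Dsg3 were chosen for naming after their values were seen.

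Between the genotypes, the 2 keratins that define the cells stood level, and the other markers split. Krt1 (chr15:101845426-101850794) had 11962 CPM in Chrna5-/- and 11795 CPM in WT cells and Krt10 (chr11:99385254-99389364) 13856 and 14201 CPM, ratios of Chrna5-/- over WT of 1.01 and 0.976; since they chose the cells, this is a description. A gene is called higher or lower below where its CPM ratio is at least 1.5, or at most 1 over 1.5, with an interval that leaves out 1, among genes with 20 or more UMIs over both libraries. Of 11848 genes measured in this way, 398 were higher in Chrna5-/- cells (3.36%) and 668 were lower (5.64%), with a median log2 ratio of -0.0045. Of the 7 markers, 2 were higher and 0 lower.

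Mt4 (chr8:94137197-94139031), a metallothionein of stratified epithelia that binds zinc and copper, had 1522 CPM in Chrna5-/- cells and 843 CPM in WT cells, a ratio of 1.81 (1.77 to 1.84). It was higher in each bin of the Krt1 and Krt10 share, with ratios of 1.87, 1.85 and 1.39. Cells of 5000 or more UMIs (1031 Chrna5-/- and 959 WT) were thinned to 5000 UMIs. Cells of lower depth were left out of all thinned values here and below. After thinning, 84.6% of Chrna5-/- and 68.0% of WT cells had an Mt4 UMI (without thinning, over all cells, 88.4% and 77.0%). In Cd3-positive cells, not thinned, the shares were 7.52% and 3.75%. The Cd3-positive cells are far shallower, with a median depth of 3115 UMIs in Chrna5-/- and 3015 in WT. The ubiquitous metallothioneins did not share the difference: Mt1 had 2260.2 CPM in Chrna5-/- and 2173 CPM in WT cells (1.04), and Mt2 had 1529 and 1679 CPM (0.911). They also ran against Mt4 along the Krt1 and Krt10 share, with Mt2 at 1988, 1326 and 379.9 CPM over the bins in Chrna5-/- cells and 2028, 1548 and 727 CPM in WT cells. Of the 13 measured genes of the metallothionein and zinc transport list, Mt4 was the 1 higher and Slc39a2, a zinc importer, with 11.3 CPM in Chrna5-/- and 22.9 CPM in WT cells, the 1 lower; the median log2 ratio was -0.090.

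The start regions of these 3 neighbouring genes on chromosome 8 are shown because their levels part although all belong to 1 gene cluster. The sequences, on GRCm38.p6, run from 250 bases before to 50 bases after the gene start in RefSeq, 5′ to 3′ on the plus strand. Capitals mark matches to the metal response element core, TGCACNC or TGCGCNC on either strand. RefSeq starts can differ from the GENCODE starts used for gene coordinates. For Mt2 the GENCODE start, chr8:94172664, lies near the end of its window, so the windows may be placed differently and their matches are not directly comparable. The Mt4 window holds 1 match, the Mt2 window 4 and the Mt1 window 3, and 25.7% of 32851 promoter windows of this length hold at least 1.
Mt4, chr8:94136954-94137253: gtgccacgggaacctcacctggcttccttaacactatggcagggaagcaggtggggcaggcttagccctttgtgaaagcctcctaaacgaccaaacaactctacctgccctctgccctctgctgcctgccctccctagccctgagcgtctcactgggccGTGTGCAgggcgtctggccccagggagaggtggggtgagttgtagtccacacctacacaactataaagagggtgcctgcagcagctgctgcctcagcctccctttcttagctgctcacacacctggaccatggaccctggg
Mt2, chr8:94172368-94172667: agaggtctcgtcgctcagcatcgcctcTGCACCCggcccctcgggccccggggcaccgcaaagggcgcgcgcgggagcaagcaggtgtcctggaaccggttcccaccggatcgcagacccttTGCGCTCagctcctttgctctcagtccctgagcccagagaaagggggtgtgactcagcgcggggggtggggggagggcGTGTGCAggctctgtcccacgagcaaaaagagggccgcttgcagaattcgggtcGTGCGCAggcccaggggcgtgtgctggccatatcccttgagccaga
Mt1, chr8:94178839-94179138: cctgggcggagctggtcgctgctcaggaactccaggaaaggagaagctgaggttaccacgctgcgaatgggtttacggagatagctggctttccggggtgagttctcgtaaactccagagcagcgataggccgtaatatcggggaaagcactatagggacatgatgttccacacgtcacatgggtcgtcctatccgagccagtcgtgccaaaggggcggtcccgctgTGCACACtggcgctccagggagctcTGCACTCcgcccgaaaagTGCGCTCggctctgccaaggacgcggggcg
A match describes these letters and does not show that a factor binds there.

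Them5 (chr3:94342099-94347352), a mitochondrial acyl-CoA thioesterase, was the other marker called higher, with 135 CPM in Chrna5-/- and 72.0 CPM in WT cells, a ratio of 1.88 (1.76 to 2.00). Its ratio shrank along the range, at 2.66, 1.93 and 1.10 over the bins, and with the bins weighted alike it was below 1.5 (log2 ratio 0.53). Endou, a poly(U)-specific endoribonuclease, had 115 and 99.9 CPM and a ratio of 1.15. Krt77 (chr15:101858731-101869705), a type II keratin of spinous cells, had 2575 CPM in Chrna5-/- and 3586 CPM in WT cells, a ratio of 0.718 (0.710 to 0.726) that missed the limit; over the bins it was 0.599, 0.728 and 1.06. Asprv1, the aspartic protease that processes profilaggrin, had 243 CPM in Chrna5-/- and 346 CPM in WT cells, a ratio of 0.703 (0.677 to 0.729), and was lower in each bin, at 0.691, 0.758 and 0.613. Chosen by the same Krt1 and Krt10 limit in both libraries, the Chrna5-/- cells thus carried more Mt4 and Them5 message. Short of the fold limit, they carried less Krt77 and Asprv1.

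**Figure D3:**
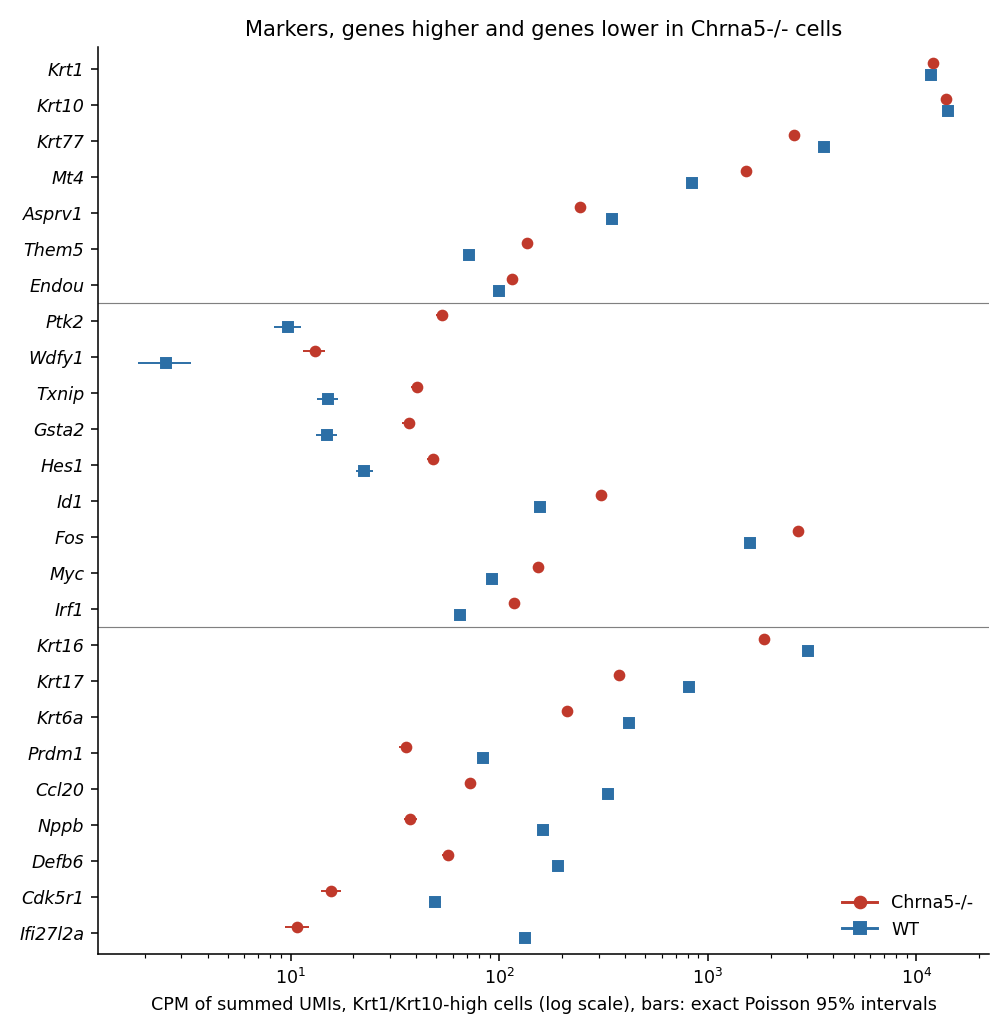
CPM of summed UMIs (x axis, log scale) in Krt1/Krt10-high cells of the Chrna5-/- library (circles) and the WT library (squares) for the 7 markers (top), genes called higher (middle) and genes called lower in Chrna5-/- cells (bottom); bars are exact Poisson 95% intervals. Krt1 and Krt10 nearly coincide, while Ptk2 and Wdfy1 lie farthest apart in the middle group and Ifi27l2a in the bottom group.

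Most early differentiation products were neither higher nor lower, though the share called higher exceeded the 3.36% over all measured genes. Of the 20 measured genes of this list, 3 were higher, 1 was lower and 16 were neither, with a median log2 ratio of 0.033. Krtdap, a secreted protein of differentiating keratinocytes, had 6422 CPM in Chrna5-/- and 5631 CPM in WT cells (1.14), and Sbsn, suprabasin, 1751 and 1851 CPM (0.946). Calm4, a calmodulin-like skin protein, had 3773 and 4559.8 CPM (0.827). Beside Them5, the higher genes were Skint5 and Skint6, butyrophilin-like products of the skin and thymus, with 18.3 CPM of Skint6 in Chrna5-/- and 11.6 CPM in WT cells (1.58); at 2% or more of Krt1 and Krt10 its log2 ratio was 0.48, short of the limit of 0.58. The lower gene of the list was Klk7, a kallikrein that cleaves corneodesmosomes, with 52.0 and 115 CPM (0.452), and bin ratios of 0.311, 0.634 and 0.280. Among the 5 spinous and granular keratins Krt2, a type II keratin of the upper layers, was higher, but at 119 UMIs in Chrna5-/- and 23 in WT cells (5.72 and 1.18 CPM, 4.83), and 0 were lower.
Krtdap and Sbsn lie in 1 gene cluster on chromosome 7 and both were higher at a higher Krt1 and Krt10 share in both libraries, with Sbsn at 995, 2106 and 3404 CPM over the bins in Chrna5-/- cells and 1129.7, 2158 and 3485 CPM in WT cells. Their start regions (RefSeq, GRCm38.p6, plus strand, the same window) are shown with AP-1 letters, TGANTCA on either strand, in capitals; the Sbsn window holds 2 matches and the Krtdap window 1, against at least 1 in 7.81% of the 32851 windows. The windows of Krt10 and Krt77 hold 0. Sbsn was chosen for naming after its values were seen.
Sbsn, chr7:30751221-30751520: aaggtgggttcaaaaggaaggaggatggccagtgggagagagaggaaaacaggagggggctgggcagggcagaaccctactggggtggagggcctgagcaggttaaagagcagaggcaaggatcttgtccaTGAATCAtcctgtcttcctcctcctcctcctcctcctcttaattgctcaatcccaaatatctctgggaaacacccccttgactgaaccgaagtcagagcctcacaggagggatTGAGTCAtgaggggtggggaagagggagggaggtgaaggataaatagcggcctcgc
Krtdap, chr7:30787655-30787954: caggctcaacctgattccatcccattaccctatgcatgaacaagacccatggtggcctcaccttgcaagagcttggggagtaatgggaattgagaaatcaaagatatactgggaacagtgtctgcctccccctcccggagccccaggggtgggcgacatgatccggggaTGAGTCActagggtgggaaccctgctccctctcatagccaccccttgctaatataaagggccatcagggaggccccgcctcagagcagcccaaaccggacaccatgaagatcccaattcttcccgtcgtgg

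Desmosome and junction genes gave few calls, while the basal and hemidesmosome list held more lower ones. Over all measured genes 3.36% were higher and 5.64% lower. In the desmosome list 0 of 15 measured genes were higher and 1 was lower, with a median log2 ratio of -0.042; Dsp, desmoplakin, had 1999 CPM in Chrna5-/- and 1889 CPM in WT cells (1.06), and Perp 3354 and 3248 CPM (1.03). The lower gene, Cdsn, is corneodesmosin of the upper granular layer and had 23 UMIs in Chrna5-/- and 56 in WT cells; with Krt79 at 0 UMIs its log2 ratio was -0.049. Among adherens, tight and gap junction genes 1 of 23 was higher, Marveld2 (tricellulin; 13.3 CPM in Chrna5-/- and 7.36 CPM in WT cells, ratio 1.80), and 2 were lower, Cldn4 (36.9 and 75.5 CPM, 0.489) and Gjb2 (9.14 and 14.5 CPM, 0.631), whose log2 ratio was -0.47 with Krt79 at 0 UMIs. In the basal and hemidesmosome list 1 of 26 was higher and 5 were lower. Krt5 had 1797 CPM in Chrna5-/- and 2164 CPM in WT cells (0.830), and Krt14 6945 and 6342 CPM (1.10), both neither. The lower ones included Itgb4 (17.2 and 26.8 CPM, 0.641) and Thbs1, thrombospondin 1 (187 and 407 CPM, 0.460).

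The cornified envelope list leaned lower, but on few cells. Of its 42 genes 22 were measured, 1 was higher, 10 were lower and 11 were neither, with a median log2 ratio of -0.49. Flg, filaggrin, had 5.39 CPM in Chrna5-/- and 52.3 CPM in WT cells, a ratio of 0.103, yet it was found in 24 Chrna5-/- and 29 WT cells, and the top 1% of cells (12 Chrna5-/- and 10 WT) held 85.7% of its Chrna5-/- and 94.98% of its WT UMIs. The same concentration held for Crct1, with 78.8% and 92.9% and a log2 ratio of -0.37 with Krt79 at 0 UMIs, and Cnfn, cornifelin, with 81.8% and 87.1%. Sprr1a, found in 651 Chrna5-/- and 636 WT cells, had 418 CPM in Chrna5-/- and 507 CPM in WT cells (0.826), and Sprr1b, found in 572 and 598 cells, had 378 and 503 CPM (0.752); both were neither higher nor lower. Ivl, involucrin, with 11.8 and 26.1 CPM (0.453), stood between, its top 1% holding 50.4% and 40.2% of UMIs. The 1 higher gene, Sprr2d, was likewise concentrated, with 91.9% and 80.2% of UMIs in the top 1% of cells, and a log2 ratio of 0.38 after thinning. Crct1 and Ivl were chosen for naming after their values were seen.

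The keratins and ligands of activated epidermis were mostly lower in Chrna5-/- cells. Of 19 measured genes 1 was higher, 12 were lower and 6 were neither, with a median log2 ratio of -0.74 against -0.0045 for all measured genes. Krt16 (chr11:100246091-100248902) had 1849 CPM in Chrna5-/- and 3037 CPM in WT cells, a ratio of 0.609 (0.601 to 0.617); with the bins weighted alike its log2 ratio was -0.52, short of the limit. Krt17 had 377 and 817 CPM (0.462, 0.449 to 0.475), and Krt6a 212 and 417 CPM (0.508, 0.489 to 0.527). Krt6a, Krt16 and Krt17 are also keratins of the hair follicle, and the markers of outer root sheath and bulge summed to 1132 CPM in Chrna5-/- and 1554 CPM in WT cells, with 0 higher and 4 lower of 10 measured, a median log2 ratio of -0.37 and Fgf5 at 0 UMIs in both libraries; Krt17 is on that list and on the upper follicle list, and the part of such cells in the keratin differences was not tested. All 3 keratins were lower in each bin, with ratios of 0.514, 0.637 and 0.844 for Krt16, 0.433, 0.470 and 0.619 for Krt17 and 0.386, 0.605 and 0.625 for Krt6a. Krt6b, close in sequence to Krt6a, had 118 CPM in Chrna5-/- and 95.1 CPM in WT cells (1.24), neither, with 74.4% and 62.4% of UMIs in the top 1% of cells; reads of such near-identical keratins could be split between them.
Among the growth factors of the same list, Epgn, epigen, a ligand of the EGF receptor, was lower, with 136 CPM in Chrna5-/- and 309 CPM in WT cells (0.441), while Hbegf, another such ligand, stood level at 506 and 516 CPM (0.980). Nppb, the natriuretic peptide B precursor, had 37.6 and 161 CPM (0.233, 0.215 to 0.252), found after thinning in 6.89% of Chrna5-/- and 19.2% of WT cells (without thinning, 10.8% and 27.3%) and in 0.564% and 3.75% of Cd3-positive cells. The 1 higher gene of the list was Ptk2, which encodes focal adhesion kinase. Epgn and Hbegf were chosen for naming after their values were seen.

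**Figure D4:**
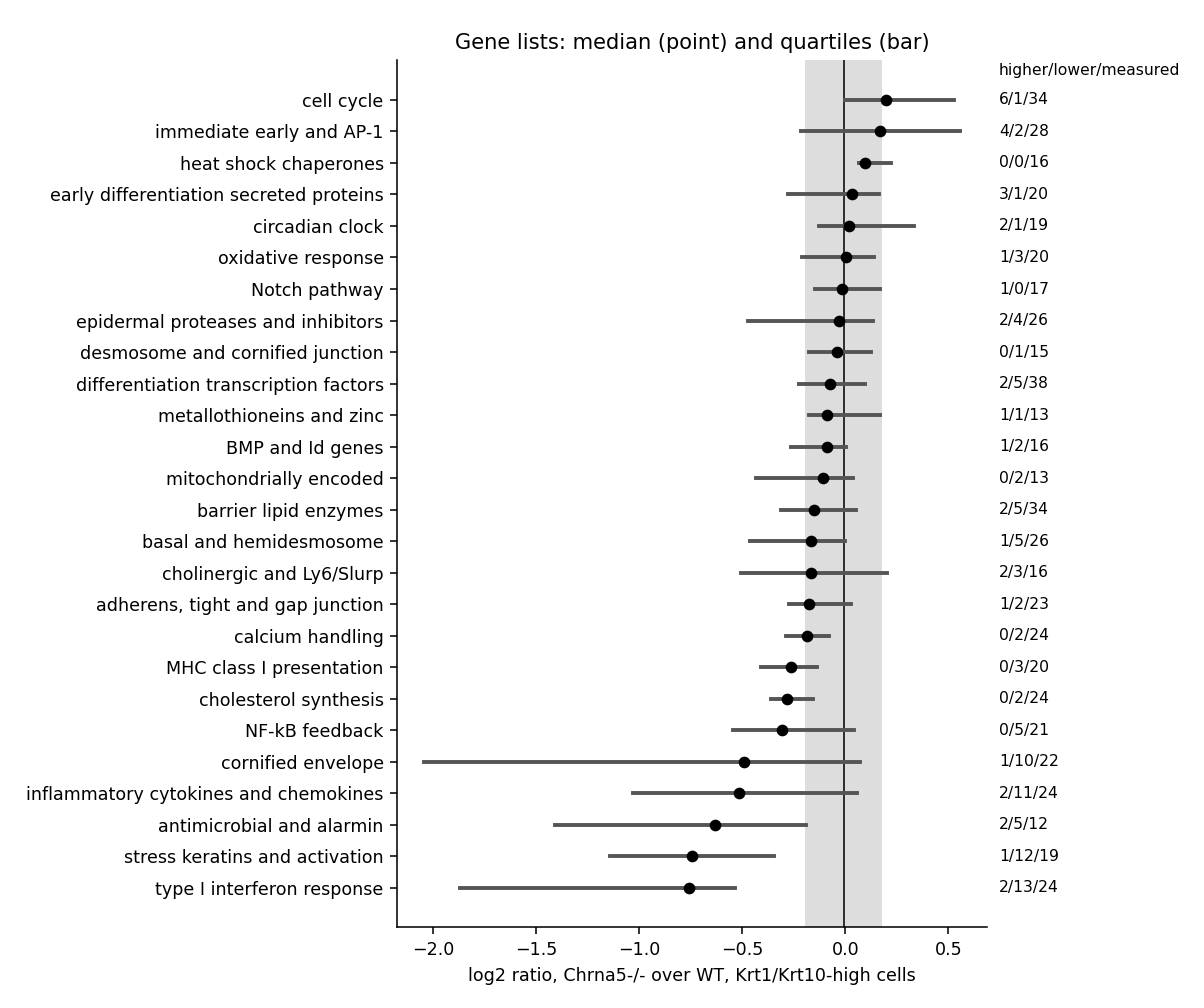
Median (point) and quartiles (bar) of the log2 CPM ratio, Chrna5-/- over WT, of the measured genes of 26 lists with 10 or more of them, cell type marker lists left out, in Krt1/Krt10-high cells (x axis), with the counts called higher and lower and the number measured at the right; the grey band spans the quartiles of all measured genes. Among the lists shown, the medians of the interferon, stress keratin, antimicrobial, cytokine and cornified envelope lists lie farthest left of the band, and that of the cell cycle list lies at its right edge.

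Chemokines and cytokines leaned the same way, in a list that shares Il1a, Il1b and Il33 with the one above. Of 24 measured genes 2 were higher, 11 were lower and 11 were neither, with a median log2 ratio of -0.52. Ccl20 (chr1:83116766-83119167), the ligand of Ccr6 that draws interleukin-17-producing lymphocytes and dendritic cells, had 72.2 CPM in Chrna5-/- and 334 CPM in WT cells, a ratio of 0.216 (0.204 to 0.229), with bin ratios of 0.174, 0.241 and 0.255. After thinning, 11.2% of Chrna5-/- and 30.2% of WT cells had a Ccl20 UMI (without thinning, 17.6% and 39.0%), against 0.940% and 3.93% of Cd3-positive cells. Il33, an alarmin stored in the nucleus, had 173 and 316 CPM (0.548), and was lower in each bin. Cxcl14, a constitutive skin chemokine, had 27.2 and 56.9 CPM (0.477), and Ccl27a, a keratinocyte chemokine for skin-homing T cells, 92.8 and 188 CPM (0.494). Cxcl14 and Ccl27a were chosen for naming after their values were seen. The 2 higher genes, Cxcl1 and Cxcl2, were found in 65 and 23 of the Chrna5-/- and 55 and 22 of the WT cells, and their direction turned under alternatives given in the closing section. Among feedback genes of NF-kB, 0 of 21 were higher and 5 were lower, with a median log2 ratio of -0.31; Tnip3, of the family of A20-interacting proteins, had 1.68 CPM in Chrna5-/- and 9.06 CPM in WT cells (0.186), whereas Nfkbia had 2096 and 1738 CPM (1.21).

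Antimicrobial and alarmin genes gave 2 higher, 5 lower and 5 neither of 12 measured, with a median log2 ratio of -0.63. Defb6, a beta-defensin of skin and a gene of the upper hair follicle, had 56.5 CPM in Chrna5-/- and 191 CPM in WT cells, a ratio of 0.296 (0.277 to 0.316), and bin ratios of 0.313, 0.314 and 0.213. Upper follicle and sebaceous markers as a list summed to 1270.3 CPM in Chrna5-/- and 1945 CPM in WT cells, 0 of 10 measured were higher, 3 (Krt79, which the rule capped, Krt17 and Defb6) were lower, and Awat1 was at 0 UMIs in both libraries; the part of such cells in the Defb6 difference was not tested. Stfa1, a stefin that inhibits cysteine proteases, was higher at 385 and 235 CPM (1.64); the stefin genes are near-identical copies, so its count is uncertain.

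Interferon response genes had a median log2 ratio of -0.76, with 2 higher, 13 lower and 9 neither of 24 measured. Most of these genes were scarce: beside Ifi27l2a and Irf1, none of the genes called in this list exceeded 16.1 CPM in either library. Ifi27l2a (chr12:103442167-103443680), an interferon-induced mitochondrial protein gene, had 10.7 CPM in Chrna5-/- and 132 CPM in WT cells, a ratio of 0.0810 (0.0704 to 0.0929), with bin ratios of 0.135, 0.0470 and 0.0135. It was found after thinning in 4.46% of Chrna5-/- and 30.6% of WT cells (without thinning, 9.99% and 48.4%), and in 9.21% and 21.96% of Cd3-positive cells, which can make it themselves. Irf1, which interferon and other signals induce, ran the other way, with 117 CPM in Chrna5-/- and 65.2 CPM in WT cells (1.80). In the list of MHC class I presentation 0 of 20 were higher and 3 were lower, with a median log2 ratio of -0.26; H2-Q7 had 57.2 and 128 CPM (0.446), though the H2 genes share sequence, and B2m had 865 and 1153 CPM (0.750).

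Immediate early genes leaned the other way. Of 28 measured genes 4 were higher, 2 were lower and 22 were neither, with a median log2 ratio of 0.17. Fos, a subunit of AP-1, had 2704 CPM in Chrna5-/- and 1595 CPM in WT cells (1.70), Atf3, a stress-induced factor, 2584 and 1629 CPM (1.59), and Myc 153 and 92.7 CPM (1.65). Sgk1, a serum- and glucocorticoid-induced kinase, had 59.2 and 34.0 CPM (1.74). Egr3 was lower, at 187 and 283 CPM (0.661), with a log2 ratio of -0.53 at 2% or more of Krt1 and Krt10, short of the limit. These genes are known to be induced while skin is dissociated, and the handling of the 2 samples is not described separately, so genotype and handling cannot be told apart. Heat shock chaperones, another group that handling can induce, gave 0 higher and 0 lower of 16, with a median log2 ratio of 0.094. With 3.36% of all measured genes higher and 5.64% lower, 0 calls among 16 say little. These chaperones summed to 7245 CPM in Chrna5-/- and 6378 CPM in WT cells, and the part of handling was not tested. Atf3 and Myc were chosen for naming after their values were seen.

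Mitotic genes were higher in part. Of 34 cell cycle genes 6 were higher, 1 was lower and 27 were neither, with a median log2 ratio of 0.20. Mki67, the proliferation marker, had 53.2 CPM in Chrna5-/- and 29.1 CPM in WT cells (1.82); at 1 to 2% of Krt1 and Krt10 it had 98.6 and 47.6 CPM, and at 2 to 5% 27.9 and 19.4 CPM. In cells of 2% or more its log2 ratio was 0.53, short of the limit. Cenpe, a kinetochore motor, had 19.5 and 8.55 CPM (2.28). Both genes were concentrated in few cells. The top 1% of cells held 49.9% of the Chrna5-/- and 41.6% of the WT UMIs of Cenpe, and 44.2% and 36.6% of those of Mki67. Cenpe was found in 75 Chrna5-/- and 63 WT cells, and Mki67 in 166 and 133. Birc5 and Ube2c, also mitotic, were neither, at ratios of 1.24 and 1.10. Ccnd1, cyclin D1, was the lower gene (23.1 and 35.6 CPM, 0.650), with a log2 ratio of -0.43 with bins weighted alike. Low keratinocytes had 342 CPM of Mki67 in Chrna5-/- and 223 CPM in WT skin, a ratio of 1.53.

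Most transcription factors and signalling genes of differentiation were neither higher nor lower. Of 38 factors 2 were higher, 5 were lower and 31 were neither, with a median log2 ratio of -0.075. Both shares were larger than those over all measured genes, 3.36% higher and 5.64% lower. Klf4, a factor that drives the barrier programme, had 1251 CPM in Chrna5-/- and 1310.2 CPM in WT cells (0.955). Prdm1 (Blimp1), a repressor active in the granular layer and sebaceous gland, was lower at 35.6 and 83.9 CPM (0.425, 0.389 to 0.463), in each bin (0.346, 0.429 and 0.836). Hes1, the Notch target that maintains spinous cells in mouse embryos, was higher at 48.0 CPM in Chrna5-/- and 22.6 CPM in WT cells (2.13, 1.90 to 2.38). It was the only call among 17 measured Notch pathway genes; Notch1 had 86.9 and 86.8 CPM (1.00) and the list median was -0.016. Id1, a target of BMP signalling, was higher at 307 and 157 CPM (1.957, 1.87 to 2.04), while Id3 had 435 and 461 CPM (0.943) and Fst, follistatin, an inhibitor of activins and BMPs, was lower at 14.5 and 38.4 CPM (0.377). In that list 1 of 16 was higher and 2 were lower, at a median log2 ratio of -0.090.

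Lipid and metabolic lists showed small shifts of the median, with some calls. For comparison, 3.36% of all measured genes were higher and 5.64% lower. Of 34 barrier lipid genes 2 were higher and 5 lower, with a median log2 ratio of -0.15; Elovl4, which makes very long chain fatty acids, had 348 CPM in Chrna5-/- and 383 CPM in WT cells (0.909), and Alox12b had 5.72 and 11.3 CPM (0.507). Sdr16c6, a retinol dehydrogenase of the short-chain family, was higher at 37.0 and 20.5 CPM (1.80), through the 2 to 5% bin, since the bin ratios were 0.995, 2.38 and 1.06, and its log2 ratio was 0.36 with bins weighted alike. The cholesterol synthesis list had 0 higher and 2 lower of 24, with a median log2 ratio of -0.28. Insig1, a sterol-sensing regulator of the pathway, had 28.1 CPM in Chrna5-/- and 43.2 CPM in WT cells (0.650), and its call was lost at 2% or more of Krt1 and Krt10 (log2 ratio -0.41). Of 26 proteases and inhibitors 2 were higher and 4 lower; Serpinb12 was higher at 44.4 and 23.5 CPM (1.89), with bin ratios of 3.34, 2.30 and 0.952 and a log2 ratio of 0.31 with bins weighted alike, and Serpinb2, plasminogen activator inhibitor 2, had 1666 and 2483 CPM (0.671), just short of the limit. Of 13 mitochondrially encoded genes 2 were lower, mt-Nd3 at 121 and 279 CPM (0.434) and mt-Nd6 at 7.21 and 11.5 CPM (0.628; log2 ratio -0.48 at 2% or more), and the list median was -0.11. Of 20 oxidative response genes 1 was higher and 3 lower, and of 24 calcium handling genes 0 were higher and 2 lower, with medians of 0.0053 and -0.19.

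Most genes of the cholinergic and Ly6 list were too scarce to be measured. Of 39 cholinergic and Ly6 genes only 16 were measured, with 2 higher, 3 lower and a median log2 ratio of -0.17. Ly6d had 5109.8 CPM in Chrna5-/- and 4582 CPM in WT cells (1.12), and Lypd3 895 and 1261 CPM (0.710). Slurp1, a secreted ligand of nicotinic receptors, was lower with 33 UMIs in Chrna5-/- and 98 in WT cells, and the top 1% of cells held 57.6% and 83.7% of them; with Krt79 at 0 UMIs its log2 ratio was -0.10. The 0 UMIs of Chrna5 in the Chrna5-/- and the WT cells allow up to 0.144 and 0.154 CPM (3 counts), so Chrna5 was not detectable in either genotype at this depth.

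Ranked over the called genes with 200 or more UMIs that were found in at least 5% of the cells of 1 library, the largest differences fell on genes of varied function. Ptk2 (chr15:73205102-73423280) had 53.1 CPM in Chrna5-/- and 9.68 CPM in WT cells, a ratio of 5.49 (4.70 to 6.44), with bin ratios of 5.33, 5.32 and 11.2. After thinning, 24.7% of Chrna5-/- and 3.65% of WT cells had a Ptk2 UMI (without thinning, 56.1% and 14.7%), and in Cd3-positive cells the unthinned shares were 14.8% and 4.11%. Wdfy1, an adaptor of endosomal toll-like receptors, had 13.0 and 2.52 CPM (5.16, 3.799 to 7.15), and Cdk5rap1, which modifies mitochondrial tRNAs, 8.94 and 2.78 CPM (3.22). These 3 genes were higher in Chrna5-/- Cd3-positive cells as well, with ratios of 3.92 for Ptk2, 2.68 for Wdfy1 and 9.74 for Cdk5rap1. The Cdk5rap1 ratio in those cells rests on 35 Chrna5-/- and 4 WT UMIs (interval 3.48 to 37.7). Txnip, a thioredoxin-binding protein induced by glucose, had 40.4 and 15.1 CPM (2.67) in Krt1/Krt10-high cells but a ratio of 0.894 in Cd3-positive cells. The remaining genes of the 12 highest ratios were Gsta2 (2.48), a glutathione transferase, Bbc3 (2.36), the BH3-only protein PUMA, Adh6b (2.33), Cenpe, the forkhead factor Foxq1 (2.14), Hes1, the adenosine receptor gene Adora2b (2.12) and Dcn (2.52), a fibroblast proteoglycan with 87.5% of its Chrna5-/- UMIs in the top 1% of cells. The direction of Dcn turned, with log2 ratios of -0.92 without marker-carrying cells and -1.16 at 2% or more of Krt1 and Krt10.

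At the other end stood Gm47283, with 2.98 CPM in Chrna5-/- and 164 CPM in WT cells, and Mid1, with 1.06 and 11.7 CPM. Gm47283 is annotated at chrY:90784738-90816464 and Mid1 at chrX:169685199-170005736, both at the pseudoautosomal end where the 2 chromosomes share sequence, so reads of 1 can be assigned to a copy of the other and both counts are uncertain. The remaining low genes beside Ifi27l2a, Tnip3, Ccl20, Nppb and Defb6 were Gm13305 (0.223), Fam167a (0.256), Gm13010 (0.311), Cdk5r1 (0.316), the p35 activator of the kinase Cdk5, and Tyrp1 (0.304), an enzyme of melanin synthesis. Cdk5r1 had 15.6 CPM in Chrna5-/- and 49.4 CPM in WT cells and was lower in each bin, at 0.276, 0.336 and 0.337.

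Melanocyte markers were unevenly spread between the libraries. Cells with 3 or more UMIs of Pmel, Dct, Mlana and Tyrp1 were 28 of the Chrna5-/- (2.35%) and 118 of the WT Krt1/Krt10-high cells (11.3%), and the 7 melanocyte genes summed to 79.7 CPM in Chrna5-/- and 170.1 CPM in WT cells, with 0 higher, 5 lower and none at 0. Summed CPM of the T cell list were 114 in Chrna5-/- and 134 in WT cells, of the Langerhans cell and macrophage list 157 and 182, and of the fibroblast list 37.3 and 52.6. By defining markers alone, 3 or more UMIs of Cd3d, Cd3e, Cd3g and Trdc were found in 6 Chrna5-/- and 17 WT cells, of Cd207, Cd74 and H2-Aa in 6 and 10, and of Col1a1, Col1a2, Col3a1 and Dcn in 7 and 13; for the whole lists the cells with 3 or more UMIs were 289 and 308 (T cell), 499 and 503 (Langerhans cell and macrophage), 20 and 30 (fibroblast) and 34 and 137 (melanocyte). Any of the 4 sets of defining markers reached 3 UMIs in 47 Chrna5-/- (3.95%) and 153 WT cells (14.7%). Scrublet scores of 0.25 or more, a mark of likely doublets, were found in 32 Chrna5-/- (2.69%) and 48 WT cells (4.62%). Without the cells that carried such markers, 414 genes were higher and 503 lower, and without those of high doublet score 444 and 530, so the excess of lower over higher calls was smaller; the part of such cells in the other calls was not tested. Ccl20, Krt17, Ptk2 and Mt4 kept their call without either set of cells, while 14 of the 124 named genes with a call fell short of the limit without the marker-carrying cells and 8 without those of high doublet score. The log2 ratio of Ccl20 was -2.18 and -2.25, that of Krt17 -1.10 and -1.07, that of Ptk2 2.43 and 2.50 and that of Mt4 0.82 and 0.85.

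The leading differences are set side by side with those in keratinocytes outside the Krt1/Krt10-high cells; the same 2 libraries are behind each, so they are not independent. Krt16 had a ratio of 0.609 in Krt1/Krt10-high, 0.530 in intermediate and 0.574 in low keratinocytes. For Ccl20 the 3 ratios were 0.216, 0.148 and 0.236, for Nppb 0.233, 0.235 and 0.243, and for Mt4 1.81, 2.19 and 1.90. The stress keratin and activation list had median log2 ratios of -0.74 in Krt1/Krt10-high, -0.88 in intermediate and -0.81 in low keratinocytes, and the interferon list -0.76, -1.24 and -0.98. Ptk2 had its largest ratio in the Krt1/Krt10-high cells, at 5.49 (4.70 to 6.44) against 3.65 (3.11 to 4.30) and 2.45 (2.32 to 2.58). These intervals do not overlap, but they cover counting error only, and a difference between the groups of cells was not tested. Hes1 showed the same order, 2.13 (1.90 to 2.38), 1.68 (1.47 to 1.93) and 1.25 (1.17 to 1.34), though here the first 2 intervals overlap. Krt77 differed in the opposite order, with 0.718 in Krt1/Krt10-high, 0.491 in intermediate and 0.358 in low keratinocytes. In low keratinocytes Krt77 had 37.7 CPM in Chrna5-/- and 105 CPM in WT cells, and a Krt77 UMI was also found in 14.5% of Chrna5-/- and 15.0% of WT Cd3-positive cells, which should lack it; the part of such free RNA in the ratios was not tested.

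**Figure D5:**
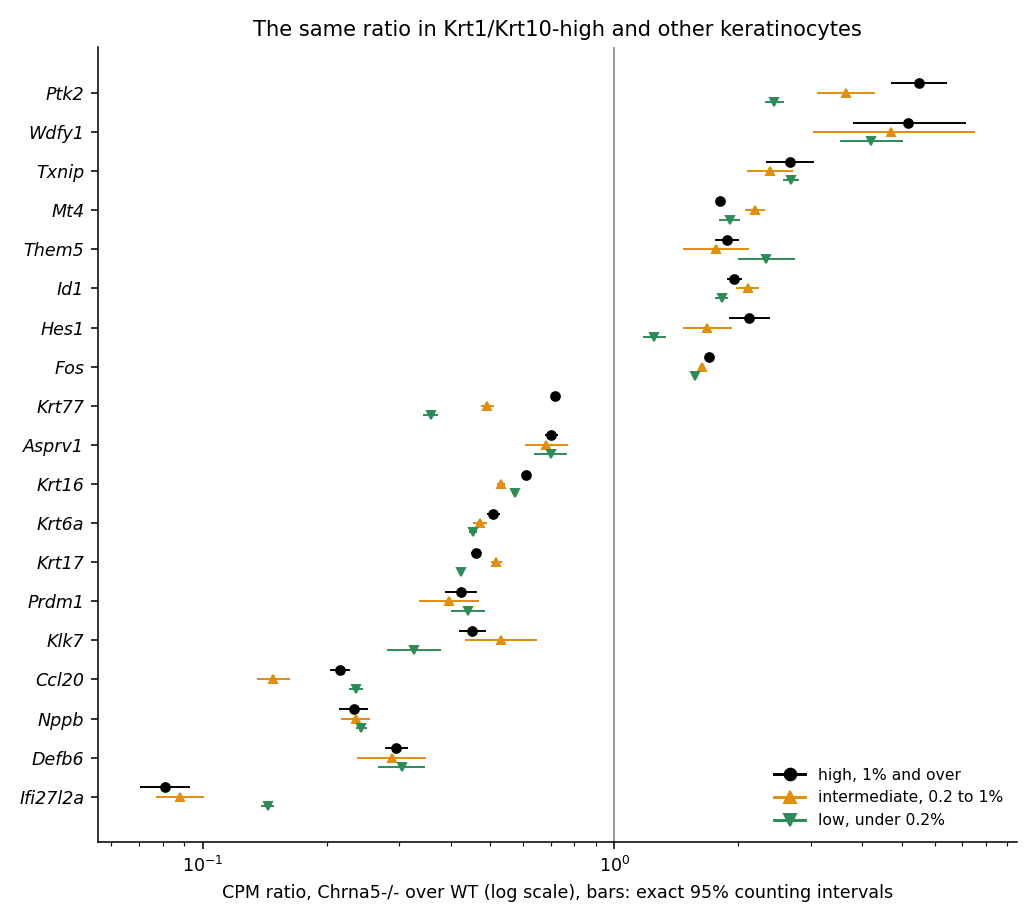
CPM ratio, Chrna5-/- over WT (x axis, log scale, with exact 95% counting intervals), of 19 genes in Krt1/Krt10-high keratinocytes (circles), intermediate keratinocytes (triangles up) and low keratinocytes (triangles down). The points of each gene lie on the same side of 1, Ptk2 and Hes1 lie farthest right in Krt1/Krt10-high cells, and Krt77 lies farthest left in low keratinocytes.

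Within a library, Krt1/Krt10-high cells also differed among themselves beyond counting error. The 12 genes with the largest excess spread are described, where excess spread is the smaller of the 2 libraries' coefficients of variation after removal of counting variance, among genes of at least 100 CPM; this rule was set after the data were seen. Krt6a led with 2.96 in Chrna5-/- and 2.89 in WT cells, and was found in 31.5% and 47.7% of them. Sprr1b had 2.18 and 1.81, Asprv1 2.05 and 2.02, and Krt15, a keratin of basal and bulge cells, 2.37 and 2.66. The others were Sprr1a, Igfbp3, Thbs1, Ptgs2 (cyclooxygenase 2), Il33, Adamts1, Stmn1 and Lars2. Of these 12, Igfbp3, Il33, Krt6a, Ptgs2 and Thbs1 were also called lower in Chrna5-/- cells, Igfbp3 and Ptgs2 with log2 ratios of -0.54 at 2% or more and -0.51 with bins weighted alike, short of the limit.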

How the data were processed

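The authors deposited 2 matrices of whole-number UMI counts per gene and cell barcode, 1 per library, not normalized; per the submitters' processing notes the build was mm10 and the tools were Cell Ranger 3.0.2 and Seurat 3.0, whose roles the notes do not give. Gene coordinates are those of GENCODE vM21 on the same build, in which all 778 listed genes were matched by Ensembl ID. Counts were summed over the Krt1/Krt10-high cells of each library and divided by their total (CPM) with Python 3.11.15, numpy 2.4.6, scipy 1.17.1 and pandas 2.3.3. Ratios carry exact conditional binomial 95% intervals and levels exact Poisson ones; with 1 library per genotype no p-value was computed, and no replicate number could be paired. A group at 0 UMIs was set to a floor of 3 counts per library. UMIs remove PCR copies, but the intervals cover counting error only.

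The members and gene lists were chosen with earlier results of these data known. Named genes are the 12 highest and 12 lowest ratios among called genes with at least 200 UMIs and found in 5% of cells, the 2 highest, 2 lowest and 2 most abundant of each list, the markers, and the extremes of the Krt1 and Krt10 gradient and of the comparison with low keratinocytes; exceptions are named as such, and some genes that the rule names are not reported here. Doublets were scored with Scrublet (scanpy 1.11.5) and kept, with their removal as an alternative. On simulated Poisson counts with 200 changed genes the procedure called 186 of them and 88 of 11641 unchanged ones. The simulated counts had no spread between cells or libraries beyond counting error. They therefore give no rate of false calls for these data. Alternatives covered doublets, cell filters, depth, scaling, free RNA, thresholds and weights.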

Additional observations from a re-analysis of the deposited data

Results flagged for a closer look

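The log2 ratio of Dcn, decorin, a proteoglycan of fibroblasts, was 1.34 in Krt1/Krt10-high cells and -0.86 in keratinocytes with low Krt1 and Krt10, opposite directions between the 2 groups of cells. The difference between these groups was not tested, since each genotype is 1 library. Dcn had 10.0 CPM in Chrna5-/- and 3.96 CPM in WT Krt1/Krt10-high cells, the top 1% of cells held 87.5% of the Chrna5-/- and 42.9% of the WT UMIs, and without cells carrying markers of other cell types the log2 ratio was -0.92.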

How the results depend on the processing

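No paired analysis was possible because each genotype is 1 library. The count of higher genes (398) was 656 with the mean over cells and 607 with bins weighted alike, and that of lower genes (668) was 412 with cells thinned to 5000 UMIs; under the other alternatives they ranged over 329 to 506 and 503 to 873. The ratio of shares (1.25) was 1.37 with Krt79 at 0 UMIs and 1.12 among keratinocytes. It was 1.41 without Krt1/Krt10-high cells carrying markers of other cell types, an alternative chosen after seeing the data. The cells so removed, 3.95% of the Krt1/Krt10-high Chrna5-/- and 14.7% of the WT cells, stayed in the count of kept cells. Of 124 named genes with a call, 0 fell short of the fold limit under TMM scaling or with Krt1 and Krt10 outside the total, 1 under median-of-ratios scaling, 2 under the strict cell filter, and 5 to 18 under the other alternatives, most at 2% or more of Krt1 and Krt10; the TMM and median-of-ratios factors were -0.011 and -0.023 (log2). The list medians ranged over -0.85 to -0.53 for stress keratins, -0.96 to -0.57 for interferon genes and 0.013 to 0.37 for the cell cycle.

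Among genes called higher or lower, directions turned for these (log2 ratios): at 2% or more Cxcl1 -0.72, Dcn -1.16, Kit 0.017, Lum -0.37 and Smpd3 -0.10; without cells carrying other markers Cxcl1 -0.46, Dcn -0.92, Dusp2 1.25, Lum -0.51, Smpd3 -0.87, Sox10 1.30 and Traf1 0.30; thinned Ccne1 -0.10, Kprp 0.48, Lum -0.10 and Lypd6 -0.10; with the mean over cells Cxcl2 -0.15 and Gsta3 -1.54; with 5% free RNA subtracted Cd74 0.58 and H2-Ab1 0.98; without likely doublets Cxcl1 -0.52. The cause was not tested. Depth limits genes under 20 UMIs, which were not measured.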

Other observations

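Circadian clock genes were mostly level in Krt1/Krt10-high cells, with 2 higher, 1 lower and 16 neither of 19 measured and a median log2 ratio of 0.017. Nr1d2, a nuclear receptor of the clock, had 29.6 CPM in Chrna5-/- and 19.6 CPM in WT cells (1.51), a call lost after thinning (log2 ratio 0.37). Bhlhe41, a repressor of the clock, was lower at 1.83 CPM in Chrna5-/- and 4.12 CPM in WT cells (0.444), but it was found in 15 Chrna5-/- and 22 WT cells, and its log2 ratio was -0.41 without cells carrying markers of other cell types. Among oxidative response genes Slc7a11, the cystine transporter, was lower at 2.74 and 5.15 CPM (0.532), while Prdx1 had 758 and 748 CPM (1.01). Among calcium genes the channel Trpv4 was lower at 0.866 and 1.91 CPM (0.454), found in 16 Chrna5-/- and 34 WT cells.

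Krt1/Krt10-high cells of low depth were more frequent in the Chrna5-/- library: 160 of its cells and 81 of the WT cells had fewer than 5000 UMIs. The Krt1/Krt10-high cells held 82.8% of the Krt1 and Krt10 UMIs of all kept Chrna5-/- cells and 78.9% of those of all kept WT cells. Since Krt1 and Krt10 chose the cells, this is a description.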
